A study of Mus musculus with 2 samples.

Results

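The major urinary protein (Mup) genes were taken by symbol, as every gene named Mup and a number in the deposited table of liver transcripts. The rule found 20 genes of the 24054 in the table: Mup1 to Mup17, Mup19, Mup20 and Mup21. All 20 are also in the second deposited table, which holds 16318 genes, and all 20 had a mean over the 2 libraries of 1 TPM or more (TPM is a gene's share of the transcript pool, corrected for transcript length). The family was picked with the KO and WT levels of some of its members in these same libraries already known, so every change of level between the genotypes is given as a description.

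Liver RNA came from male C57BL/6 mice of 8 to 12 weeks, either Pgrmc1 KO (Pgrmc1 -/Y) or WT. Pgrmc1 is an X-linked gene for a heme-binding membrane protein. The KO is whole body and was made by crossing mice with loxP sites around exons 1 and 2 of Pgrmc1, on a C57BL/6N background, to Sox2-Cre mice, in which Cre acts in the early embryo. From each of 5 mice per genotype, 2.5 μg of RNA went into a pool before library preparation, so there is 1 library per genotype. The spread between mice is therefore unknown, and every difference below lacks a replicate check and a p-value. In bulk liver, fewer cells of a type and less RNA per cell cannot be told apart.

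Major urinary proteins are small barrel-shaped carriers of the lipocalin family. Hepatocytes secrete them into the blood, the kidney passes them into the urine, and there they hold volatile pheromones and release them slowly, while some act as signals of identity themselves. In mice they are made mostly by males, whose pulses of growth hormone act on liver through the receptor Ghr and the factor Stat5b, and testosterone, glucocorticoids and feeding also set their level. The genes lie side by side on 1 chromosome and most are recent duplicates of each other.

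How much the copies can be told apart bears on every value below. In the coding sequences of the GENCODE M21 annotation of GRCm38 (the mm10 assembly), 14 genes (Mup1, Mup2, Mup7 to Mup17 and Mup19) were 98.3% to 99.8% identical to each other, and no other pair of members was over 94.8% identical. These 14 are called the near-identical copies here. The remaining 6, Mup3, Mup4, Mup5, Mup6, Mup20 and Mup21, are called the other Mup genes. The grouping was set after the identities were seen. Below are 60 bases of coding sequence from the start of the protein, where the signal peptide for secretion is encoded, in the genes whose levels the results turn on. Capitals mark each base that differs from the most common base of the near-identical copies at that position.
Mup9: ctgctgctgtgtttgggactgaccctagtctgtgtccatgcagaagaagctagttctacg
Mup19: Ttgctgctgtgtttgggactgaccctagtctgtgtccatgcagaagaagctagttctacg
Mup7: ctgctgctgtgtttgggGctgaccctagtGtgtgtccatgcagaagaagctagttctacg
Mup20: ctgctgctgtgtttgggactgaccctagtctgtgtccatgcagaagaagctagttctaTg
Mup3: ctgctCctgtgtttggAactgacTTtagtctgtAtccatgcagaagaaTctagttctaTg
Mup21: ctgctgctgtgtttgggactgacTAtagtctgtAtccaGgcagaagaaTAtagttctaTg
On GRCm38 these stretches are chr4:60421815-60421874 for Mup9, chr4:61782087-61782146 for Mup19, chr4:60070229-60070288 for Mup7, chr4:62053975-62054034 for Mup20, chr4:62087148-62087207 for Mup3 and chr4:62150678-62150737 for Mup21. All 6 are exonic, each within 1 exon, and on the minus strand. The 14 near-identical copies had 6 versions of this stretch and all 20 genes had 12, and 5 copies (Mup2, Mup9, Mup10, Mup11 and Mup17) shared 1 version. Over the whole coding sequence Mup19 and Mup9 differed at 1 base, T13C, with the base of Mup19 first and positions counted from the A of the start codon. That base opens the stretch shown. Mup19 and Mup16 also differed at 1 base, C129T.

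The reads were 100 bases long, and the authors' quantifier, RSEM, divides a read among all the genes it matches. Of the 100-base windows of the annotated transcripts, 0% of those of Mup19 were unique to it among all genes, 2.66% of those of Mup2 and Mup15, 8.60% of those of Mup14, 14.9% of those of Mup9 and 40.6% of those of Mup17. The levels of single near-identical copies thus rest largely on how RSEM split shared reads, though read pairs span more sequence than 1 window. Mup20, by contrast, shared 0 of its 829 windows with a near-identical copy, and its 322 shared windows all matched the pseudogene Mup-ps19. Windows of Mup3, Mup21, Mup4, Mup5 and Mup6 were unique in 95.5% to 100% of cases. A sum over the copies does not depend on how reads were split within it. It still depends on the split with genes outside it, such as Gm2083 (described below), and that split was not measured. The near-identical Mup18 and Mup22 of the GENCODE reference have no deposited level, and where their reads went is not known. The authors' annotation may thus hold other copies than this reference, and the windows unique in it may differ from those given here.

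The libraries held an estimated 22086692 reads in KO and 29710419 reads in WT on the genes of the second table. Pgrmc1 was at 0.68 TPM in KO and 949.49 in WT, which fits the labels. The hepatocyte markers Alb, Ttr, Apoa1, Serpina1a, Tat and Cps1 summed to 72108 TPM in KO and 75240 in WT, and 0 of the 6 passed a fold of 1.4 up or 0.6 down. Marker sums of other cells were far lower in both libraries, with 177.1 and 157.3 TPM for 5 Kupffer cell genes, 97.7 and 110.5 TPM for 4 endothelial genes, 160.4 and 180.3 TPM for 4 stellate cell genes, 4.2 and 5.4 TPM for 4 bile duct genes and 6.1 and 5.0 TPM for 2 neutrophil genes, KO first. No marker of these 5 cell types was at 0 in either library or passed the fold in TPM, with 1 added to each value. In the authors' means, KO first, the bile duct gene Epcam (19.8 and 45.6) and the neutrophil gene S100a9 (19.8 and 13.8) were past it. The 4 hemoglobin genes summed to 1293.9 TPM in KO and 1315.2 in WT, and Hbb-bs was past the fold downward, as were 0.301% of all genes. The part of these small differences in the Mup levels was not tested.

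Mup transcripts made up a large part of the liver mRNA in both genotypes, and the sum of the 20 genes was 1.03 times as high in KO as in WT. The 20 genes summed to 122134 TPM in KO and 118434 in WT, which is 12.15% and 11.91% of all TPM. The log2 ratio of the sums was 0.04, and it was 0.08 in the authors' means, the second deposited measure, in which estimated reads are divided by a size factor for the library. The 95% interval of the latter ran from 0.07 to 0.08 and covers counting error only, on 1302581 and 1668966 estimated reads. Under that total the make-up differed, with a higher sum of the near-identical copies in KO and a lower sum of the other 6 genes, most of the latter from Mup20.

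The near-identical copies summed to 90777 TPM in KO and 74380 in WT, a ratio of 1.22 and a log2 ratio of 0.29 (0.30 in the authors' means). The other 6 Mup genes summed to 31357 TPM in KO and 44054 in WT, a ratio of 0.712 and a log2 ratio of -0.49 (-0.46 in the authors' means). The difference, KO minus WT, was 16398 TPM for the first sum and -12698 TPM for the second, which leaves 3700 TPM for all 20 genes. With Gm2083, a gene of another symbol described below, the first difference was 24901 TPM and the total 12204 TPM, so the balance of the 2 depends on leaving that gene out. As a share of all Mup transcripts, the near-identical copies were 74.3% in KO and 62.8% in WT. The median log2 change was 0.34 for the 14 near-identical copies and -0.17 for the other 6 genes. The copies share reads, so their changes are not independent, and the family was picked from this contrast. Nothing is read from these medians. The median over all 11623 genes with a mean of 1 TPM or more was -0.01.

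**Figure D1:**
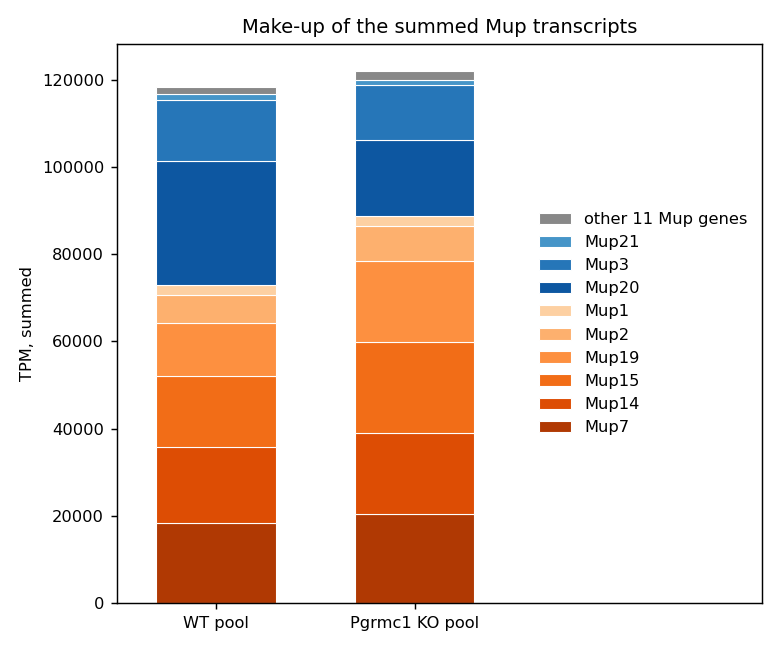
Stacked bars of the TPM of the 9 Mup genes with a mean of 1000 TPM or more, with the other 11 summed in grey, in the WT pool and the Pgrmc1 KO pool (1 library each, no error bars). Orange parts are near-identical copies and blue parts other Mup genes. The totals are 118434 TPM in WT and 122134 TPM in KO, while the Mup20 part shrinks from 28503 to 17438 TPM and the Mup19 part grows from 12121 to 18621 TPM.

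The levels of single members ran from 3.02 TPM for Mup4 in KO to 28502.59 TPM for Mup20 in WT. Of these, 9 had a mean of 1000 TPM or more and carried 98.3% of the Mup sum in KO and 98.7% in WT: Mup20, Mup7, Mup14, Mup15, Mup3, Mup19, Mup2, Mup1 and Mup21, in the order of their WT levels. The next 7, from Mup12 at 785.80 TPM in KO and 752.11 in WT to Mup8 at 19.85 and 20.45 TPM, were lower by 1 or more orders of magnitude than the most abundant. Mup4, Mup5, Mup6 and Mup10 lay between 3.02 and 8.62 TPM in the 2 libraries.

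**Figure D2:**
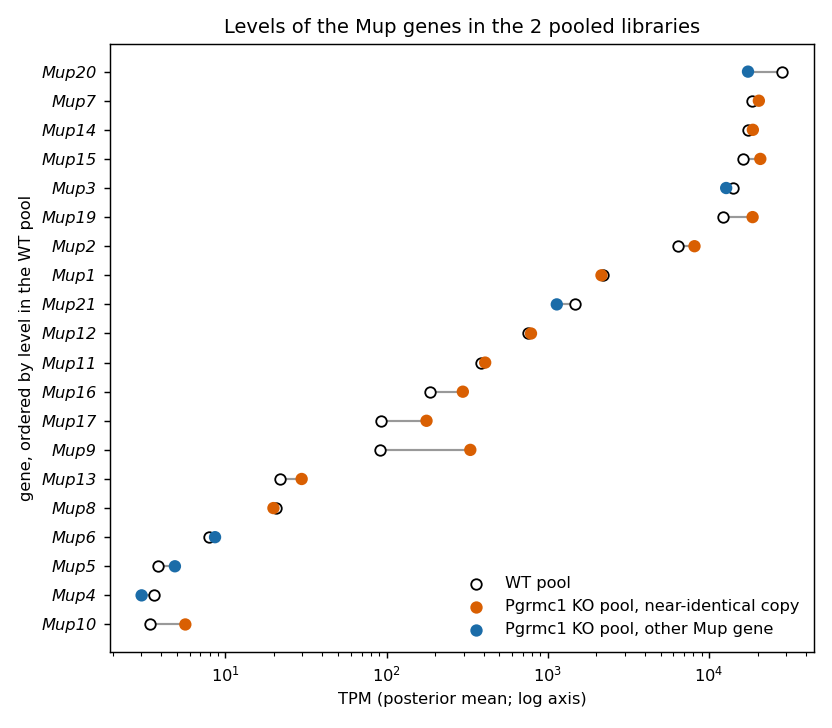
Level of each of the 20 Mup genes in TPM on a log axis, in the WT pool (open circles) and the Pgrmc1 KO pool (filled, orange for near-identical copies and blue for other Mup genes), ordered by the WT level. Mup20 leads in WT at 28503 TPM and stands below Mup7, Mup14, Mup15 and Mup19 in KO, and the widest gap is that of Mup9 at 330.33 against 90.31 TPM.

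Mup20 encodes darcin, the male pheromone in urine that draws females and whose place they remember. It stood at 17437.62 TPM in KO and 28502.59 in WT. Its log2 change was -0.71, a fold of 0.612, and -0.69 in the authors' means (95% interval -0.69 to -0.68 on 175708 and 381700 estimated reads). Mup20 was the most abundant Mup gene in WT, where it ranked 3 of all genes, and ranked 8 in KO. Its share of the Mup sum was 24.1% in WT and 14.3% in KO. Its difference, KO minus WT, was -11065 TPM, which is most of the -12698 TPM of the other 6 genes together.

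The neighbours of Mup20 at the same end of the cluster were lower in KO as well, by less. Mup3, which encodes a glycosylated member of the family, was at 12766.54 TPM in KO and 14059.49 in WT, a log2 change of -0.14. Mup21 was at 1136.04 TPM in KO and 1476.81 in WT, a log2 change of -0.38. In the authors' means the log2 changes of Mup3 and Mup21 were -0.12 and -0.35. Their counting intervals, which are for that measure, lay below 0, at -0.13 to -0.11 and -0.39 to -0.32. Neither reached the fold of 0.6, and the closest gene to it was Mup20.

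A fold of at least 1.4 up was reached by 5 of the 20 Mup genes (Mup9, Mup10, Mup16, Mup17 and Mup19), and a fold of at most 0.6 down by 0. Of all 11623 genes, 1.21% passed upward and 0.301% downward. In the authors' means 4 of the 20 passed upward, without Mup16, and 0 downward, beside 2.56% and 0.693% of 11543 genes. With 1 divided by 1.4 as the threshold for falls, Mup20 also passed, beside 1.02% of all genes. Nearest to the threshold were Mup10 inside at 1.51-fold and Mup13 outside at 1.34-fold. The members were picked from these contrasts, so nothing is read from the counts.

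Mup9 had the largest ratio of the family. It was at 330.33 TPM in KO and 90.31 in WT, a log2 change of 1.86, and 1.89 in the authors' means (95% interval 1.80 to 1.99 on 3299 and 1200 estimated reads). Among all genes it ranked 363 in KO and 1111 in WT. It made up 0.271% of the Mup sum in KO and 0.0763% in WT, so that its rise of 240.02 TPM weighs little in the total. Its unique windows numbered 114, and 0 of them lay inside the coding sequence, since its coding bases are matched in other copies. The gene spans chr4:60418046-60421952 on the minus strand.

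Mup19, which differs from Mup9 at 1 coding base, rose as an abundant copy. It was at 18620.56 TPM in KO and 12120.64 in WT, a log2 change of 0.62, and 0.61 in the authors' means (95% interval 0.61 to 0.62). The difference of 6500 TPM was the largest rise in TPM among the 20. With 0% of unique windows in the GENCODE reference, no single 100-base read could be assigned to Mup19 alone by that reference. Without Mup19 the other 13 near-identical copies summed to 72157 TPM in KO and 62259 in WT, a log2 ratio of 0.21.

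Of the remaining abundant copies, Mup15 and Mup2 were higher in KO by a fold below 1.4, with log2 changes of 0.35 and 0.33. Mup15 was at 20787.42 TPM in KO and 16254.54 in WT, and Mup2 at 8119.20 and 6442.46 TPM. Mup7 (log2 change 0.14) and Mup14 (0.10), the leading copies in WT, differed less, at 20360.79 against 18440.76 TPM and 18685.22 against 17388.56 TPM. Mup1 was nearly level, with 2150.86 TPM in KO and 2184.76 in WT. So the copies of like abundance did not move by 1 common ratio, though the division of shared reads among them was not tested.

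Among the rarer copies, Mup11 and Mup12 differed little (log2 changes of 0.09 and 0.06), and Mup8 was at -0.04. Mup13 was at 29.70 TPM in KO and 21.85 in WT, a log2 change of 0.43. Mup10 rose by 0.60 on the log2 scale, to 5.64 TPM in KO beside 3.39 TPM in WT. In the authors' means its log2 change was 0.70, on 49.5 and 40.8 estimated reads, with an interval of 0.095 to 1.35. Mup4, Mup5 and Mup6 had log2 changes of -0.20, 0.29 and 0.11 in TPM, and of -0.26, 0.37 and 0.15 in the authors' means. The intervals of the latter hold 0, so a difference in these 3 rare members of the family was not detectable at this depth.

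**Figure D3:**
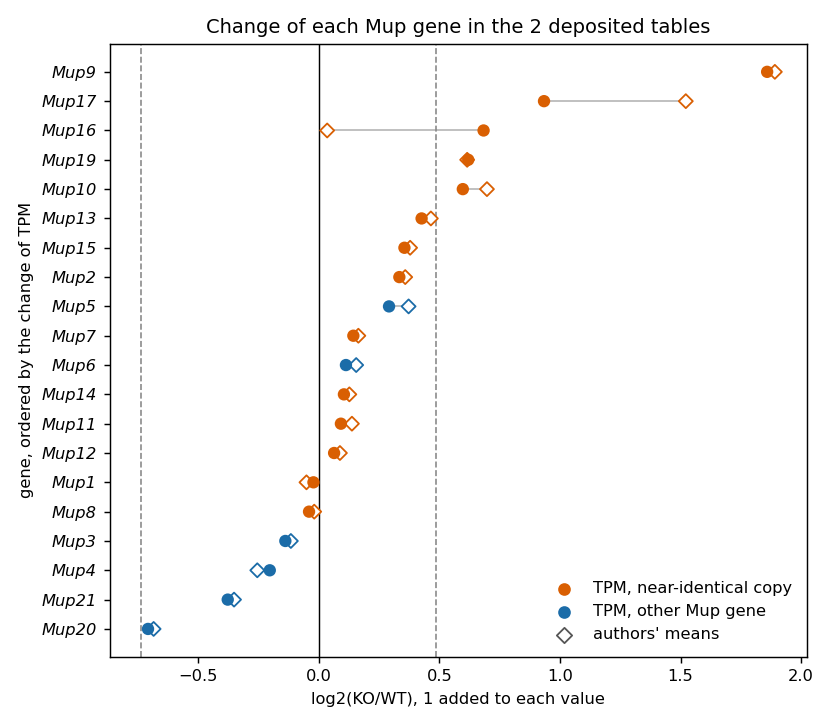
Log2 ratio of KO to WT for each Mup gene, with 1 added to each value, from TPM (filled circles) and from the authors' means (open diamonds). Dashed lines mark folds of 1.4 and 0.6, orange marks near-identical copies and blue other Mup genes. The measures lie within 0.05 of each other for the genes with a mean of 10 TPM or more except Mup16 and Mup17.

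For 2 genes the deposited measures did not give the same change. Mup16 was at 296.86 TPM in KO and 184.51 in WT, a log2 change of 0.68, but its authors' means were 4.76 and 4.63, a log2 change of 0.03, on 4.1 and 5.4 estimated reads. Mup17 was at 176.71 TPM in KO and 92.03 in WT, a log2 change of 0.93, whereas its authors' means were 1274.5 and 443.1, a log2 change of 1.52. The authors' mean per TPM ran from 9.39 to 14.1 for the members other than Mup6, Mup16 and Mup17. It was 0.0160 in KO and 0.0251 in WT for Mup16, 7.21 and 4.82 for Mup17, and 5.90 and 5.77 for Mup6. At the ratio of Mup9, the authors' means of Mup16 would stand for 0.411 TPM in KO and 0.405 in WT. Among all 6184 genes with a mean of 10 TPM or more, the change differed by over 0.5 between the measures for 9 (0.146%), and Mup16 and Mup17 were 2 of these. The rise of Mup16 in TPM therefore had almost no estimated reads behind it in the other measure, and that of Mup17 was present in both with different sizes.

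**Figure D4:**
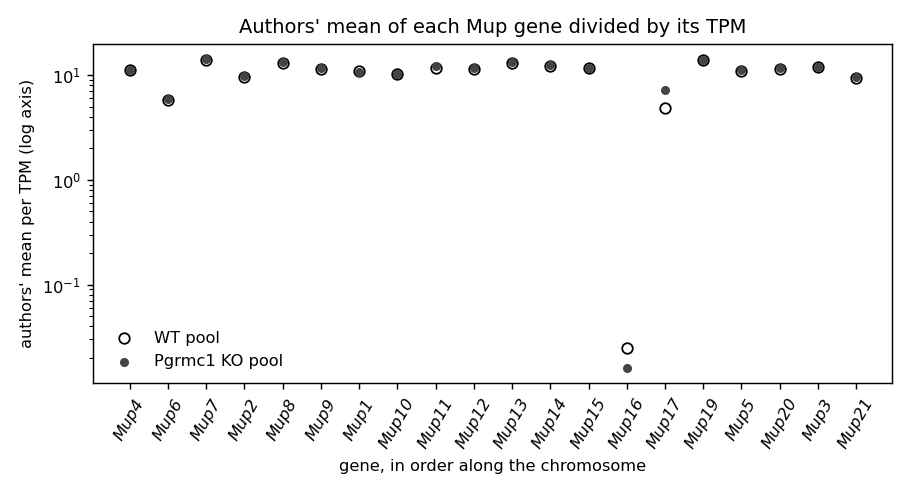
Authors' mean divided by TPM for each Mup gene in the WT pool (open circles) and the Pgrmc1 KO pool (filled dots), on a log axis and in the order of the genes along the chromosome. Mup16 lies at 0.0251 in WT and 0.0160 in KO, and Mup17 is the member whose ratio differs clearly between the pools among the rest, at 4.82 and 7.21.

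Gm2083 is not a Mup gene by symbol, but RefSeq lists it as a synonym of Mup13, together with Mup11. The deposited tables list Gm2083, Mup11 and Mup13 as separate genes, so which copy the authors' annotation meant by it is not settled. Gm2083 ranked 1 of all genes in both libraries, at 62193.75 TPM in KO and 53690.01 in WT, a log2 change of 0.21 (0.22 in the authors' means). Added to the 20 genes, it brought the sum to 184328 TPM in KO and 172124 in WT, 18.3% and 17.3% of all TPM, with a log2 ratio of 0.10. Added to the near-identical copies, it gave 152971 and 128070 TPM and a log2 ratio of 0.26, close to the 0.29 without it.

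The 98 genes outside the family with a mean of 1000 TPM or more, for which counting error is small too, give the scale of difference between these 2 libraries at such levels. Their 5th and 95th percentile of log2 change were -0.22 and 0.25, and their extremes were -0.58 for Scd1, a fatty acid desaturase, and 0.49 for Cyp3a11, a cytochrome P450. The Mup genes were picked from the same contrast, so nothing is read from where they stand in that range.

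By position, the genes spread over a cluster from Mup4, which starts at position 59956804 of chromosome 4 on GRCm38, to Mup21, which ends at 62150863. Mup6 is on the plus strand and the other 19 on the minus strand. Mup20 (chr4:62050234-62054158), Mup3 (chr4:62083476-62087342) and Mup21 (chr4:62147932-62150863) are the last 3 genes and lie more than 2 Mb from the start. All 3 were lower in KO, and they carry nearly all of the transcripts of the other Mup genes. Mup15, Mup16, Mup17 and Mup19 follow each other among the members listed in the tables and had log2 changes of 0.35 to 0.93 in TPM. In the authors' means Mup16 was at 0.03, on 4.1 and 5.4 estimated reads, and the other 3 at 0.38 (Mup15), 1.52 (Mup17) and 0.61 (Mup19). Mup9 stands between Mup8 and Mup1, which were at -0.04 and -0.02.

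**Figure D5:**
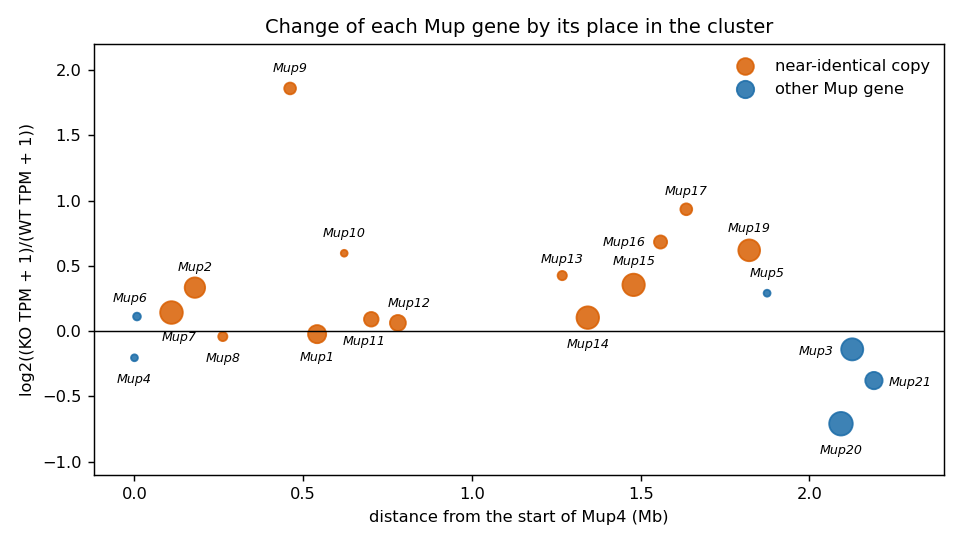
Log2 change of TPM of each Mup gene (1 TPM added) against the distance of its start from that of Mup4 in Mb. Dot size grows with the WT level, orange marks near-identical copies and blue other Mup genes. Mup20, Mup3 and Mup21 sit beyond 2 Mb with changes of -0.71, -0.14 and -0.38, and Mup9 stands alone at 1.86.

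RefSeq promoters on GRCm38.p6 were matched for 13 of the 20 members. Mup20 was not among them, nor were Mup1, Mup5, Mup8, Mup12, Mup13 and Mup16. The 250 bases before the start site of Mup9 and Mup19, which rose, and of Mup3, which did not, are shown because they tell how alike the upstream sequences of the copies are. Capitals mark TATATAA, letters like those of the box that places the start site, which were searched for after the sequences had been seen.
Mup9: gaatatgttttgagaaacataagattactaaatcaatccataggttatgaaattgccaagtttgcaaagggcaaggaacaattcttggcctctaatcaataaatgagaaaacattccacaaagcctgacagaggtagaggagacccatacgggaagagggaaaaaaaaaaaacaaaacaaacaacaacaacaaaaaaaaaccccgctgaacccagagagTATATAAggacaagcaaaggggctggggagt
Mup19: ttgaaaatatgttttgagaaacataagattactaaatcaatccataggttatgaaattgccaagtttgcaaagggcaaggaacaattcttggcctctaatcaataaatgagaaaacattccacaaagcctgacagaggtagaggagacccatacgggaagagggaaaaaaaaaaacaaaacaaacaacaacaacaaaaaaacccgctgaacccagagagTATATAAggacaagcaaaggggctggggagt
Mup3: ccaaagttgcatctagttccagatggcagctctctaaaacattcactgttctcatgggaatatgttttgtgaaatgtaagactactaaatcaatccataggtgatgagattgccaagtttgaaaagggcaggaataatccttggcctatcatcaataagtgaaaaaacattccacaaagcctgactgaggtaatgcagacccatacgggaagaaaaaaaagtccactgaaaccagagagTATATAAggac
These are chr4:60421953-60422202 for Mup9, chr4:61782225-61782474 for Mup19 and chr4:62087318-62087567 for Mup3, all on the minus strand. Over the aligned 300-base promoters, Mup9 was 97.7% identical to Mup19, 98.0% to Mup17 and 76.8% to Mup3. The levels behind the changes of single copies, such as 1.86 for Mup9 and 0.62 for Mup19, depend on the split of shared reads. That split was not measured. A link between promoter sequence and change was not tested. TATATAA, on either strand, was in 12 of the 13 Mup promoters and in 3.24% of 32851 promoters of the same length. Counted from the RefSeq start site, it began at -31 in Mup9 and Mup19, -11 in Mup3, -8 in Mup21, -2 in Mup11 and 12 in Mup14. The windows are thus not all in register, and some matches lie at or past the annotated start. TATAAA was in 2 of 13 (Mup4 and Mup6, where it overlaps TATATAA) against 13.6%. TTCNNNGAA, the letters bound by STAT5, was in 0 of 13 against 8.3%, GTTAAT, part of the HNF1 site, in 0 of 13 against 7.1%, and TGTTCT, part of the glucocorticoid receptor site, in 2 of 13 (Mup3 and Mup21) against 19.0%. These counts describe the letters in this window only.

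Growth hormone reaches Mup genes through its receptor, the kinase Jak2 and STAT5. Of 15 genes of the growth hormone and STAT5 axis, 14 had a mean of 1 TPM or more, 2 rose, 1 fell, and the median log2 change was -0.01, beside 1.21% and 0.301% of all genes past the fold up and down and the same median over them. The receptor Ghr was at 411.61 TPM in KO and 412.59 in WT, and Hnf4a, a hepatocyte factor, at 262.25 and 277.08 TPM. Socs2, an inhibitor that growth hormone induces, rose from 10.58 in WT to 17.97 TPM in KO (log2 change 0.71). Bcl6, a male-biased repressor of STAT5 targets, rose from 13.40 to 22.55 TPM (0.71), and Cish, another induced inhibitor, fell from 6.98 to 3.78 TPM (-0.74). The induced inhibitors Socs2 and Cish thus lay on opposite sides of 0. Socs3, also on the list, was at 6.16 TPM in KO and 4.79 in WT (0.31), not past the fold.

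Other male-biased liver genes were mostly level. Of 15 measured, 1 rose, 0 fell, and the median was 0.05. Of all genes 1.21% rose and 0.301% fell past the same fold, with a median of -0.01. The gene that rose was Moxd1, a monooxygenase-like gene, at 6.42 TPM in KO and 1.71 in WT. The most abundant were Serpina1e, a protease inhibitor (12608.62 and 10815.75 TPM, log2 change 0.22), and Cyp2d9, a steroid hydroxylase (1344.51 and 1256.77 TPM, 0.10). Of 16 female-biased genes 6 had a mean of 1 TPM or more. Of these, 0 rose and 1 fell in TPM, beside the same shares of all genes. The 1 was Cyp2a4, a steroid hydroxylase, at 70.88 TPM in WT and 0.22 in KO. Window sharing was measured for Mup genes only, so a split of reads between Cyp2a4 and related genes was not checked. In the authors' means Acot3 was past the fold upward, at 56.0 in KO and 28.4 in WT, as were 2.56% of 11543 genes. Its TPM was 1.44 in KO and 0.75 in WT. The median change of the 6 in TPM was 0.07. The most abundant after Cyp2a4 was the prolactin receptor Prlr at 39.54 TPM in KO and 30.35 in WT.

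Among other lipocalins, 7 of 13 had a mean of 1 TPM or more, 2 rose, 0 fell, and the median was 0.12, beside 1.21% and 0.301% of all genes. The 2 that rose are acute phase genes. Orm2, an orosomucoid, was at 29.06 TPM in KO and 5.10 in WT (log2 change 2.30), and Lcn2, an iron-siderophore carrier, at 11.03 and 4.63 TPM (1.10). The most abundant lipocalins, Ambp (2529.00 and 2333.23 TPM) and Rbp4, the plasma retinol carrier (2203.49 and 2176.38 TPM), differed by 0.12 and 0.02 on the log2 scale. Of 10 regulators linked to Mup genes, 0 rose and 0 fell, beside the same shares of all genes, and the median was 0.05. The most abundant of them was the hepatocyte factor Cebpa, at 185.67 TPM in KO and 175.97 in WT, and Cebpb was at 95.82 and 88.25 TPM.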

How the data were processed

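RNA of 5 livers per genotype was pooled and sequenced with a stranded total RNA kit as paired 100-base reads. Per the submitters' processing notes, CASAVA 1.8.2, Bowtie and RSEM 1.2.09 were used with the mm10 build. The authors deposited posterior mean TPM, which sum to 1005325 in KO and 994702 in WT, and, from EBSeq, a mean signal of each library (estimated reads over a size factor). That table's columns of probabilities and fold changes are the authors' own comparison and were not used, and the filter behind its 16318 genes is not given in the sources used here. Its first mean column was taken as KO, from the order in which the table names the genotypes. TPM keeps no depth. Reads were estimated from the step between low values of the authors' means.

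The change of a gene is the log2 of KO TPM plus 1 over WT TPM plus 1, or likewise from the authors' means. Adding 1 makes changes of low genes look smaller. Ratios of sums took no pseudocount. Genes with a mean of 1 TPM or more were counted when their fold was 1.4 or more, or 0.6 or less. Intervals are 95% Clopper-Pearson intervals on estimated reads. They cover the error of counting alone, neither mice nor the split of reads. With 1 library per genotype no test was run. Coding sequences and 100-base windows came from GENCODE M21 transcripts, with a threshold of 95% identity for the near-identical group. Promoters span 250 bases before to 50 after each RefSeq start site.

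Members and gene lists were chosen with earlier results of these data known. Named were Pgrmc1, every Mup symbol and genes RefSeq ties to a major urinary protein. From each pathway list, every gene past the fold in TPM and the 2 most abundant were named. Scd1, Cyp3a11, Socs3, Acot3 and the cell type markers were added. Other scalings, pseudocounts, filters, thresholds and sums were tried. The computation was tested on simulated data with independent counts for each gene. Those data held no reads shared between copies, so the split of reads was not tested. Software was biopython 1.88, matplotlib 3.10.9, scipy 1.17.1, pandas 2.3.3 and numpy 2.4.6 under Python 3.11.15.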

Additional observations from a re-analysis of the deposited data

How the results depend on the processing

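The log2 ratio of the summed Mup genes, 0.0444, was 0.0761 in the authors' means, 0.0576 centred on the median gene and 0.033 rescaled without the Mup genes. With Gm2083 it was 0.10, and 0.12 in the authors' means. The choice of genes moved it more, by construction, to 0.22 without Mup20, to 0.29 for the near-identical copies alone, and below 0 for the other 6 (-0.49) and for the 9 genes named with the rule (-0.19: Mup1, Mup2, Mup3, Mup7, Mup9, Mup16, Mup17, Mup20 and Mup21). Upward counts fell from 5 to 1 (Mup9) at folds of 2 and 0.5, and downward counts went from 0 to 1 (Mup20) with the mirror of 1.4 as the threshold for falls. Over 5 alternatives, 0 of 100 single-gene values changed sign, and 4, of Mup10, Mup16 and Mup17, moved by over 0.1. Grouping by RefSeq protein identity was not run, since no protein table was used here, and coding sequence identity, the sum with Gm2083 in the authors' means and the counts under rescaling were chosen after seeing the data. No paired analysis was possible because only 1 pooled library stands for a genotype. Depth limits Mup4, Mup5, Mup6, Mup10 and, in the authors' means, Mup16. For single near-identical copies the split of shared reads is a further limit, and its size was not measured.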
